A study of Rattus norvegicus with 6 samples.

Results

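The NR4A orphan nuclear receptors Nr4a1, Nr4a2 and Nr4a3 were examined in injured rat tendon, as 3 of the 22250 genes with a count. They were chosen by their Ensembl gene IDs, ENSRNOG00000007607 for Nr4a1, ENSRNOG00000005600 for Nr4a2 and ENSRNOG00000005964 for Nr4a3, because of their difference between the groups compared here. That difference is therefore given as a description, and no test of it is used as support. All 3 genes passed the filter on low counts, which left 15122 genes.

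RNA came from tendons of Sprague-Dawley rats whose achilles tendon had been cut at its midpoint and sutured at once, and was taken on day 14. The injury model group (3 rats) carried the sutured injury and received no drug. The celecoxib + lactoferrin treatment group (3 rats) carried the same injury and received daily injections at the injured site of celecoxib, an inhibitor of cyclooxygenase-2, together with lactoferrin, an iron-binding milk protein. Both groups share the surgery, and uncut tendon and rats given celecoxib alone were not analysed here. The labels give 14 days as the age. By the study's methods the rats were already several weeks old at surgery and day 14 counts from surgery, so 14 days cannot be their age. No control for the injections is described for the injury model group, so the drugs and the daily injection cannot be told apart. The comparison asks which transcripts differ in injured tendon under the combined treatment.

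Nuclear receptors are transcription factors, most of which are switched by a small ligand such as a steroid. The NR4A receptors are called orphans because no such ligand was known when they were found, and their ligand pocket is filled by the side chains of the protein itself. Their activity is set largely by how much protein is made. They belong to the immediate early genes, which cells transcribe rapidly and briefly after growth factors, calcium, cyclic AMP, mechanical strain or inflammatory signals. Each binds DNA as a monomer at the NBRE element (AAAGGTCA). Nr4a1 and Nr4a2, but not Nr4a3, also pair with the retinoid X receptors. In fibroblasts, the main cells of tendon, Nr4a1 is known as a brake on the response to TGF-beta.

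The start regions of Nr4a1 and Nr4a2 are shown because cyclic AMP, acting through factors such as CREB, is a known inducer of the family and its DNA element can be read in the letters. Each window runs from 250 bases before to 50 bases after a RefSeq transcript start in the rat build GRCr8. That of Nr4a1 is chr7:134259888-134260187 on the + strand and that of Nr4a2 is chr3:62104838-62105137 on the - strand. Capitals mark the matches to the short form of the cyclic AMP response element (TGACG on either strand) and, in Nr4a1, to the longer TGCGTCA that contains it.

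Nr4a1: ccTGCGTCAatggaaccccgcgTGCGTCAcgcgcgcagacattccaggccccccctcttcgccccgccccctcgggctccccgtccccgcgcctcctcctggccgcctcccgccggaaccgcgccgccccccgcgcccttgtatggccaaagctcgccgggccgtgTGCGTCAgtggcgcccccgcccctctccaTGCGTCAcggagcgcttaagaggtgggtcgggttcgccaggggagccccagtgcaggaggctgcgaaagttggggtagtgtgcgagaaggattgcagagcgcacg
Nr4a2: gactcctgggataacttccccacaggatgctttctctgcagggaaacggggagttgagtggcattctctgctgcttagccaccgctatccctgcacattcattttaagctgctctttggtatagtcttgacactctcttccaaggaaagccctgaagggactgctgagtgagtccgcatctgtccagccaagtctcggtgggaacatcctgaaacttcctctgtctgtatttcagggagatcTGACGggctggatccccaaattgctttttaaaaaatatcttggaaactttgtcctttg

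The Nr4a1 window held 4 short sites, all read as CGTCA on the printed strand, starting at positions -246, -226, -82 and -53 from the transcript start. At least 4 short sites were present in 79 of the 33469 rat promoter windows of this length (0.236%), and at least 1 in 21.2%. In Nr4a1 each short site was the end of the longer string TGCGTCA. This string was added to the search after the sequence had been seen. It was present in 1.9% of all windows, and Nr4a1 was the single window with 4 copies. The Nr4a2 window held 1 short site, on the printed strand, starting at -8.

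The windows differed in base composition as well. Nr4a1 had 72.3% G and C and 36 CpG dinucleotides, against 48.7% and 5 in Nr4a2. Neither window held the full palindrome TGACGTCA (present in 1.83% of all windows), the NBRE AAAGGTCA (1.43%), the AP-1 site TGANTCA (7.33%), the CArG box bound by serum response factor (1.64%) or a MEF2 site (3.29%). The string TGCGTCA of the Nr4a1 window differs from the AP-1 site in a single letter, and which factors bind it was not tested. Both strands were searched, and the short site lies within the full palindrome wherever that occurs. Both genes extend further upstream than these windows, so other transcripts start elsewhere. Their start regions were not searched, and the contrast is between these windows and not between all start regions of the genes. The match of letters is a description of these windows, and no binding was measured here. The 3 genes lie on different chromosomes.

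The libraries held between 34546567 and 47181784 counts, and TMM scaling factors lay between 0.907 and 1.09. Levels are given in CPM, counts relative to this scaled library size, with no correction for transcript length, so levels are compared between libraries and not between genes. Other genes could not be named, because 0 of the IDs were paired with a symbol. Markers of tendon, muscle, blood vessel or immune cells, the co-induced immediate early genes and the genes that respond to TGF-beta were therefore not analysed here, and the tissue label was not checked against markers. In whole tissue, fewer cells that express a gene and less RNA per cell cannot be told apart.

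Nr4a1, also called Nur77, was lower in the treated rats by the largest factor of the 3 genes, except when celecoxib + lactoferrin replicate 1 was left out. Its counts were 2380, 2788 and 1667 in injury model replicates 1, 2 and 3, and 248, 385 and 820 in celecoxib + lactoferrin replicates 1, 2 and 3. The matching levels were 55.6, 58.0 and 49.4 CPM in the injury model rats and 7.24, 11.2 and 16.3 CPM in the treated rats. Every treated rat lay below every injury model rat, and the lowest injury model level was 3.04 times the highest treated level. The mean was 54.4 ± 4.45 CPM (SD, n = 3) for injury model rats and 11.6 ± 4.53 CPM (SD, n = 3) for treated rats. The treated mean was thus 21.3% of the injury model mean, a 4.70-fold lower level.

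Nr4a2, also called Nurr1, is best known for its part in the making of dopamine neurons and is also induced by inflammatory signals outside the brain. Its counts were 1669, 1455 and 1235 in injury model replicates 1, 2 and 3, and 723, 546 and 820 in celecoxib + lactoferrin replicates 1, 2 and 3. The levels were 39.0, 30.3 and 36.6 CPM in the injury model rats and 21.1, 15.8 and 16.3 CPM in the treated rats. The groups did not overlap here either, but they came closer, with the lowest injury model level at 1.43 times the highest treated level. The means were 35.3 ± 4.51 CPM (SD, n = 3) and 17.7 ± 2.94 CPM (SD, n = 3), a 1.99-fold lower level in the treated rats. In celecoxib + lactoferrin replicate 3, Nr4a1 and Nr4a2 had the same number of counts, 820.

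Nr4a3, also called Nor-1, is the member that does not pair with the retinoid X receptors. It had the fewest counts of the family in every library, with 591, 816 and 503 in injury model replicates 1, 2 and 3 and 142, 94 and 238 in celecoxib + lactoferrin replicates 1, 2 and 3. The levels were 13.8, 17.0 and 14.9 CPM in the injury model rats and 4.15, 2.72 and 4.72 CPM in the treated rats. As with the other two, no treated rat reached the level of any injury model rat, and the lowest injury model level was 2.93 times the highest treated one. The means were 15.2 ± 1.61 CPM (SD, n = 3) and 3.86 ± 1.03 CPM (SD, n = 3), a 3.94-fold lower level in the treated rats. Even the lowest count, 94, had a 95% Poisson interval of 76.0 to 115, which covers counting error only.

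**Figure D1:**
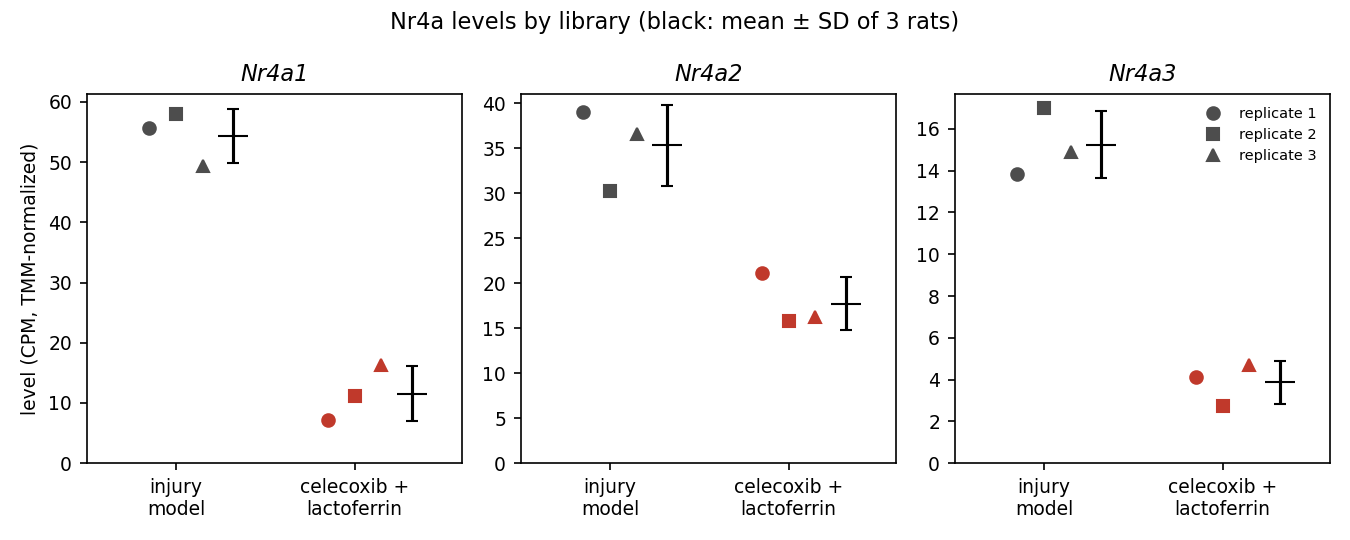
Level of Nr4a1, Nr4a2 and Nr4a3 in each library (y axis, TMM-normalized CPM, starting at 0) by group, with 1 point per rat and a symbol per replicate number. Black bars are the mean and SD of 3 rats. In each panel the 3 treated rats lie below the 3 injury model rats, and as a ratio of means the groups are furthest apart for Nr4a1 (4.70-fold) and nearest for Nr4a2 (1.99-fold).

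All 3 genes were thus lower without overlap between the groups. Over all genes tested, 3.69% were lower in this way. At an adjusted p-value under 0.05, edgeR's quasi-likelihood test called 0 of the 3 genes, where it called 1 gene, or 0.00661%, of all tested. At an unadjusted p-value under 0.05 it called all 3, against 2.61% of genes tested. DESeq2 called all 3 at an adjusted p-value under 0.05, against 0.164% of the genes to which it gave one. Nothing is read from these counts for the 3 genes, since they were picked for this difference. In edgeR's fit over all 15122 genes, the log2 fold change of treated against injury model rats was -2.23 (standard error 0.29) for Nr4a1, -0.99 (0.19) for Nr4a2 and -1.98 (0.26) for Nr4a3. The median over all genes tested was 0.0067. Of the 4688 genes with a mean level at least that of Nr4a1, 13 had a lower log2 fold change than Nr4a1. For Nr4a3 the number was 31 of 9109, and for Nr4a2 it was 58 of 5470.

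**Figure D2:**
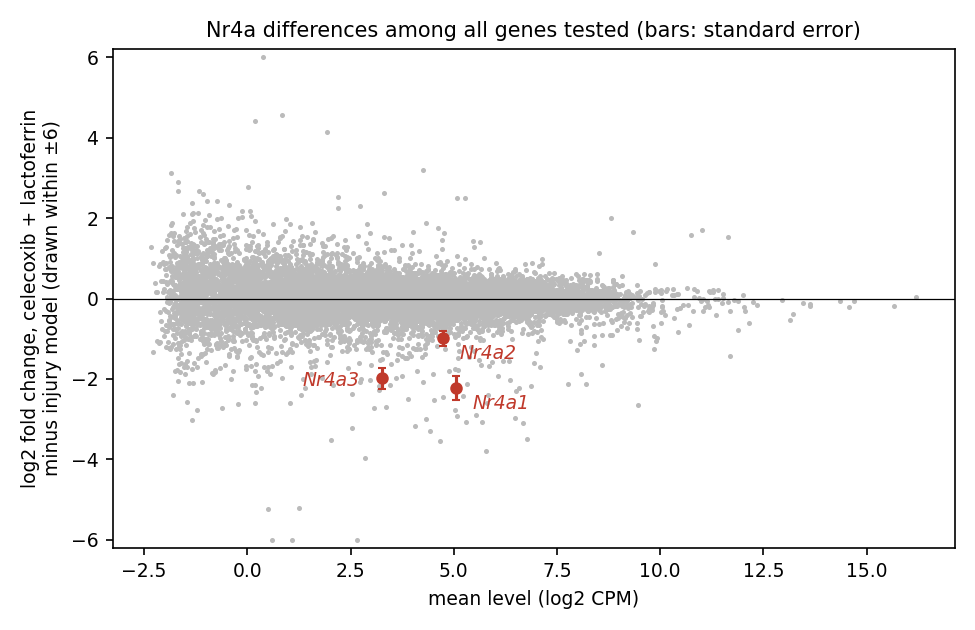
Log2 fold change of celecoxib + lactoferrin against injury model rats (y axis, values beyond 6 drawn at the edge) against mean level (x axis, log2 CPM) for the 15122 genes tested, in grey, with the 3 Nr4a genes in red and their standard errors as bars. Nr4a1 at -2.23 and Nr4a3 at -1.98 lie further below the cloud of genes of like level than Nr4a2 at -0.99.

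Added together, the 3 genes took 108, 105 and 101 CPM in injury model replicates 1, 2 and 3 and 32.5, 29.7 and 37.3 CPM in celecoxib + lactoferrin replicates 1, 2 and 3. The family total was 105 ± 3.80 CPM (SD, n = 3) against 33.2 ± 3.82 CPM (SD, n = 3), a 3.16-fold lower total. The SDs were alike in CPM, so relative to its mean the total varied more among the treated rats. The make-up of the family total differed between the groups. Nr4a1 gave 51.8% ± 3.11 (SD, n = 3) of the family's counts in the injury model rats and 34.5% ± 11.0 (SD, n = 3) in the treated rats. Nr4a2 gave 33.7% ± 4.25 (SD, n = 3) and 54.0% ± 10.7 (SD, n = 3). These shares depend on transcript length and are compared between libraries only.

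The shift of Nr4a1 and Nr4a2 within the family was present in every treated rat, but its size varied. The Nr4a1 share was lowest in celecoxib + lactoferrin replicate 1, at 22.3% (95% Wilson interval 19.9% to 24.8%, counting error only). It was 37.6% (34.6% to 40.6%) in replicate 2 and 43.7% (41.4% to 45.9%) in replicate 3 of that group. The lowest share in an injury model rat was 49.0% (47.3% to 50.6%). The Nr4a3 share lay between 9.17% and 12.8% in treated rats and between 12.7% and 16.1% in injury model rats, so that the groups overlapped for this gene.

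**Figure D3:**
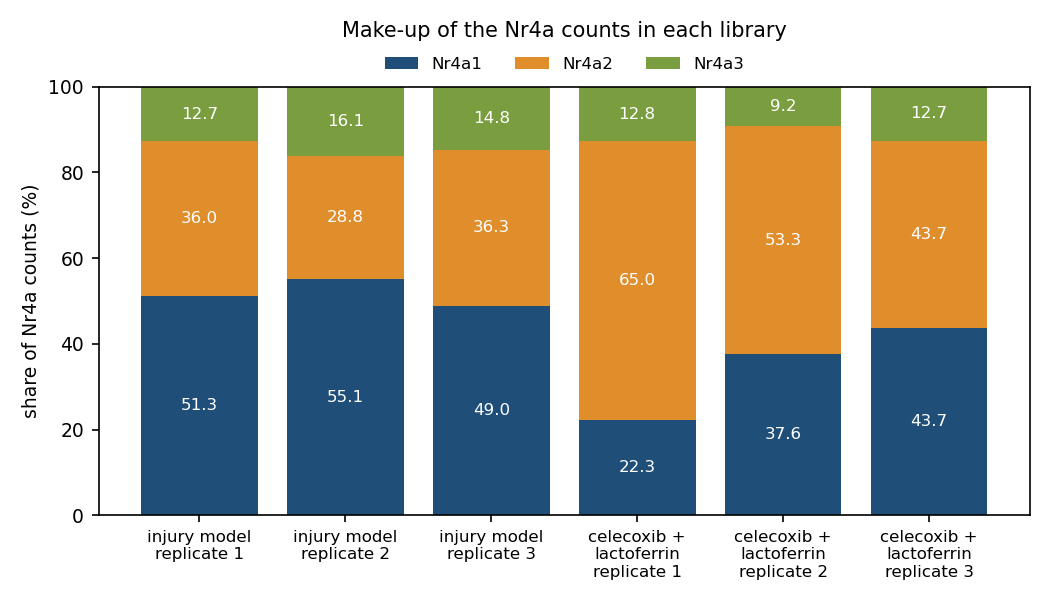
Share of the summed Nr4a counts (y axis, percent) that came from Nr4a1, Nr4a2 and Nr4a3 in each of the 6 libraries. The Nr4a1 share runs from 49.0% to 55.1% in the injury model rats and from 22.3% to 43.7% in the treated rats, while the Nr4a2 share is at most 36.3% in the former and at least 43.7% in the latter.

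Ratios of counts within a library, in which transcript length and library size cancel between libraries, give the unequal size of the differences directly. The ratio of Nr4a1 to Nr4a2 was 1.43, 1.92 and 1.35 in injury model replicates 1, 2 and 3 and 0.343, 0.705 and 1.0 in celecoxib + lactoferrin replicates 1, 2 and 3. On the log2 scale the mean was 0.63 ± 0.27 (SD, n = 3) for injury model rats and -0.68 ± 0.79 (SD, n = 3) for treated rats. The ratio of Nr4a3 to Nr4a2 also separated the groups, at a mean log2 ratio of -1.21 ± 0.34 (SD, n = 3) against -2.22 ± 0.39 (SD, n = 3). The ratio of Nr4a1 to Nr4a3 did not. It was 4.03, 3.42 and 3.31 in the injury model rats and 1.75, 4.10 and 3.45 in the treated rats. Nr4a1 and Nr4a3 were therefore lower to a like degree in treated replicates 2 and 3, and in replicate 1 Nr4a1 was lower by more. The ratios that separated the groups both contain Nr4a2, and the genes were picked for their difference between these groups. How often ratios of other gene pairs separate 3 rats from 3 was not computed.

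Relative to the group mean, the rats of the injury model group differed less from each other than the treated rats did. In CPM, the SD of Nr4a2 and Nr4a3 was larger in the injury model group, where the levels were higher. Within the injury model group the coefficient of variation was 8.19% for Nr4a1, 12.8% for Nr4a2 and 10.5% for Nr4a3, where counting error alone would give 2.10%, 2.62% and 3.96%. In the treated group it was 39.2% for Nr4a1, 16.6% for Nr4a2 and 26.6% for Nr4a3. Counting error alone would give 4.54%, 3.79% and 7.96% there. Over all 15122 genes the treated libraries were also less alike than the injury model libraries, with a mean Pearson's r of log2 CPM within the group of 0.899 to 0.913 against 0.939 to 0.944. The pooled SD of log2 CPM within groups was 0.42 for Nr4a1, 0.21 for Nr4a2 and 0.31 for Nr4a3, and the median over all genes tested was 0.32. A smaller SD than that of Nr4a1 was found in 64.7% of genes, and for Nr4a2 in 24.4%.

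The rats did not keep the same order in the 3 genes. Among treated rats, replicate 1 had the lowest Nr4a1 level and the highest Nr4a2 level, and replicate 3 had the highest levels of Nr4a1 and Nr4a3. In the injury model group, replicate 2 had the highest levels of Nr4a1 and Nr4a3 and the lowest of Nr4a2. With each group's mean removed, Pearson's r of log2 CPM over the 6 libraries was -0.70 for Nr4a1 and Nr4a2, 0.20 for Nr4a1 and Nr4a3 and 0.05 for Nr4a3 and Nr4a2. These values describe 6 rats in 2 groups and have no test. With the group difference left in, r over the same libraries was 0.84, 0.94 and 0.92. The genes were picked for that difference, which by itself makes these values high, so nothing is read from them.

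**Figure D4:**
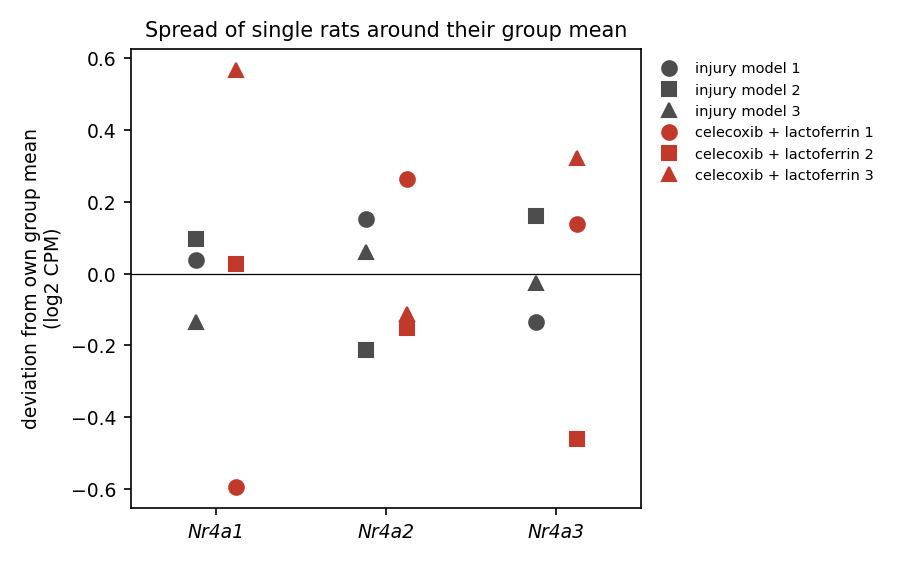
Deviation of each rat from the mean of its own group (y axis, log2 CPM) for the 3 genes, in grey for injury model and in red for celecoxib + lactoferrin, with a symbol per replicate number. The widest spread is that of Nr4a1 in the treated rats, from -0.59 in replicate 1 to 0.57 in replicate 3, while the same replicate 1 is the highest for Nr4a2 at 0.26.

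Celecoxib + lactoferrin replicate 3 had the highest Nr4a1 and Nr4a3 levels of its group. Over all genes tested it was also the treated library most like the injury model libraries, with a mean Pearson's r of log2 CPM of 0.951 with them and 0.913 with the other treated libraries. The other treated libraries were also nearer to the injury model libraries than to their own group, at 0.904 against 0.899 for replicate 1 and 0.926 against 0.909 for replicate 2. Replicate 1, with the lowest Nr4a1 level, was thus the library least like the rest. Celecoxib + lactoferrin replicate 3 belongs with injury model replicates 1 and 2 to the 3 deeper libraries. Among those 3, Nr4a1 was 3.49-fold, Nr4a2 2.13-fold and Nr4a3 3.26-fold lower in the treated rat. Among the 3 shallower libraries, of which 1 is from the injury model group, the genes were 5.37-fold, 1.98-fold and 4.34-fold lower in the treated rats. Without celecoxib + lactoferrin replicate 3 the log2 fold change of Nr4a1 was -2.56. Without celecoxib + lactoferrin replicate 1 it was -1.99, and Nr4a3 then stood lower than Nr4a1, at -2.03.

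**Figure D5:**
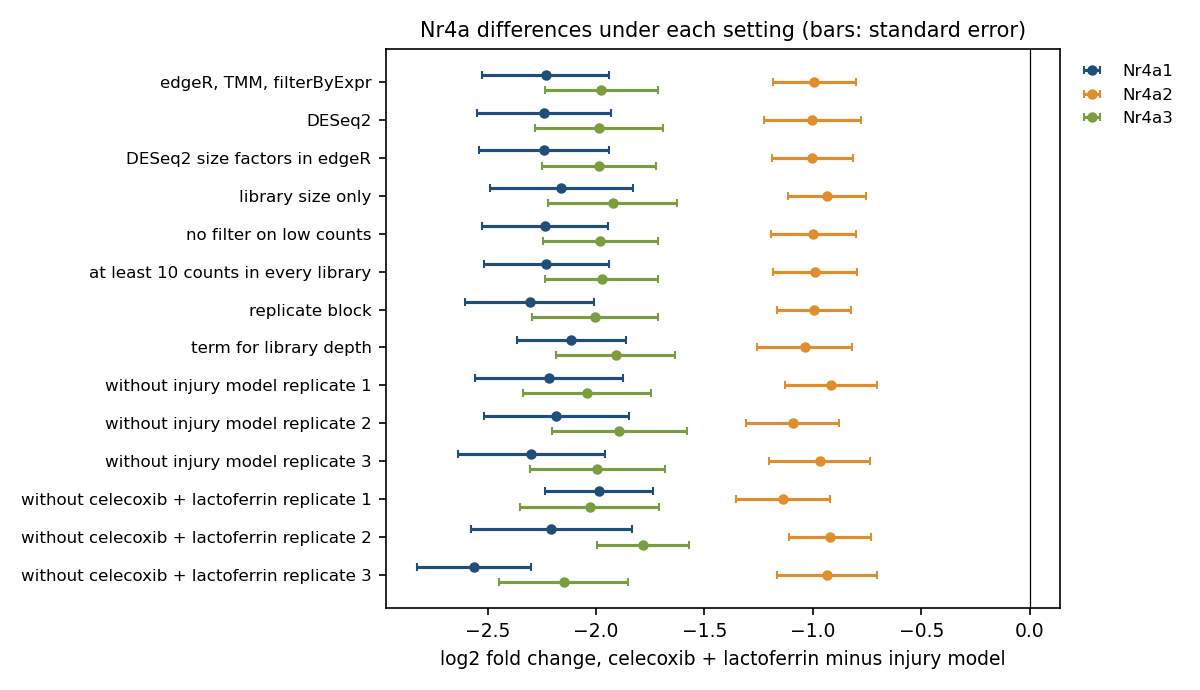
Log2 fold change of each gene (x axis, treated against injury model rats) with its standard error, under the fit of the text (top line) and 13 other settings. All values lie below 0, and Nr4a2 stays nearest to 0 in each line, between -1.14 and -0.92.

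The genes whose pattern over the 6 libraries was most like the mean of the 3 Nr4a genes were ranked by Pearson's r of log2 CPM. Of 15119 other genes, 93 (0.615%) had an r over 0.9 and 87 (0.575%) had one under -0.9. The highest r belonged to ENSRNOG00000018375 (0.989) and ENSRNOG00000018464 (0.988). ENSRNOG00000018375 had 10.7, 10.4 and 10.6 CPM in injury model replicates 1, 2 and 3 and 8.91, 8.64 and 8.89 CPM in celecoxib + lactoferrin replicates 1, 2 and 3. It shared the separation of the groups, but its log2 fold change was -0.27 (standard error 0.18). The 3 genes ranked after these 2, each with an r of 0.987, had between 110 and 526 counts in every injury model library and 0 in every treated one. At the other end, r was -0.992 for ENSRNOG00000030616, with 6.92, 6.66 and 6.73 CPM in the injury model rats and 9.29, 9.07 and 8.53 CPM in the treated rats. Likeness of this kind follows the step between the groups and not its size.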

How the data were processed

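RNA-seq of tendon from 6 rats was analysed, in 2 groups taken from the sample titles. The authors sequenced total RNA on an Illumina platform, removed reads of low quality, aligned the rest with HISAT2 and deposited raw counts per Ensembl gene ID. Their methods name the rat genome build Rnor 6, whereas the build listed in the submitters' processing notes, GRCh38.p13, is human. The IDs are those of rat. The counting tool, its strand setting and its use of reads that match several genes are not given in the sources used here. Columns were matched to samples by group letter and replicate number.

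Counts were fitted with edgeR 4.0.16 in R 4.3.3 (filterByExpr, TMM, robust quasi-likelihood, Benjamini-Hochberg adjustment). DESeq2 1.42.0 was an alternative. A prior count of 2 entered log2 CPM. The fit was tested on simulated data. Each library is 1 rat. Intervals cover counting error only. Promoter windows came from RefSeq (GRCr8), which matched 2 of the 3 genes. The gene names come with the IDs that define the family here, and 0 other IDs had a symbol, so the lists of related genes and cell markers were not applied. The named genes are the 3 receptors and the genes most like them. The members, lists and settings were chosen with earlier results of these data known.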

Additional observations from a re-analysis of the deposited data

How the results depend on the processing

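Each Nr4a difference kept its direction under all 13 alternatives and moved by less than the SD within groups. For the fits that each left out 1 rat, this was largely fixed in advance. The groups did not overlap, so the direction could hardly change, and 1 rat of 3 can move a group mean only so far. Over the fits that each left out 1 rat, the log2 fold change ran from -2.56 to -1.99 for Nr4a1, from -1.14 to -0.92 for Nr4a2 and from -2.15 to -1.78 for Nr4a3. With DESeq2 it was -2.24, -1.0 and -1.99, and with scaling by library size alone -2.16, -0.94 and -1.92. With the replicate block it was -2.31, -1.0 and -2.01. Replicate numbers were not taken as pairs in the main fit. The correlation of deviations was 0.0048, 0.057 and -0.27 for same-numbered libraries and ran from -0.31 to 0.30 for differently numbered ones. Deviations of 3 rats from their own mean depend on each other, so these values cannot show whether the rats were paired. The block gave 0 genes with an adjusted p-value under 0.05. With a term for library depth the 3 values were -2.11, -1.04 and -1.91.

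Over the whole table, 1 gene had an adjusted and 395 an unadjusted p-value under 0.05 in edgeR. The adjusted number was 26 with DESeq2, 3 without a filter and 0 with at least 10 counts in every library, and it ran from 1 to 9 (without injury model replicate 2) when 1 rat was left out. The unadjusted number was 223 with the depth term. Among the fits that each left out 1 rat, it was lowest, 226, without injury model replicate 1 and highest, 890, without celecoxib + lactoferrin replicate 3. By Spearman's rho, which takes few values over 6 libraries, 252 genes were above 0.9 in likeness to the Nr4a mean, against 93 by Pearson's r, and 42 were shared. The cause of the other moves was not tested. The count of co-induced immediate early genes was not run, since no symbols were paired.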
